A study of Mus musculus with 8 samples.

Results

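The comparison set sorted Foxp3+ thymocytes of mice lacking the E proteins E2A and HEB against those of WT mice, and it held 4 of the 8 Illumina bead arrays of the series. Members were the arrays whose titles name Foxp3+ thymocytes, 2 KO and 2 WT. The KO mice were E2Af/fHEBf/f/ER-Cre/Foxp3KI and the WT mice were WT Foxp3KI, so both carried the Foxp3KI allele. Floxed and WT mice alike received tamoxifen in corn oil by mouth, 3 mg a mouse in 4 doses over 10 days, which in the floxed mice induced the deletion. The labels give ER-Cre for the KO mice and not for the WT mice. The Foxp3+ gate is labelled CD4+Foxp3+. The other 4 arrays, 2 KO and 2 WT, hold CD4SPFoxp3- thymocytes of the same genotypes and serve here to show where the KO effect differed between the fractions. The labels do not give the age of the mice or say that replicates were separate animals, so p-values measure the spread between these samples, which may be technical. The promoter that drives ER-Cre is not given in the sources used here.

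E proteins are helix-loop-helix transcription factors that bind E-box sequences, of the form CANNTG, as dimers. E2A, encoded by Tcf3, and HEB, encoded by Tcf12, are the main E proteins of thymocytes, where they drive T cell receptor gene rearrangement and hold cells at developmental checkpoints. Id proteins, Id2 and Id3 in thymocytes, lack the DNA-binding region and block E proteins, and Id3 is itself an E protein target. Foxp3 is the transcription factor that defines regulatory T cells (Treg cells), the lineage that restrains immune responses and of which a part forms in the thymus.

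The series asks how E protein activity bears on the development of Treg cells. Between 12057 and 12540 probes were detected on the 4 Foxp3+ arrays, at a detection p under 0.05, and mean intensity lay between 358.9 and 426.9. With 2 arrays a group, their number sets how small a difference can be resolved. All values below are log2 intensities after background correction and quantile normalization of the 8 arrays, and all adjusted p-values come from limma with Benjamini-Hochberg adjustment over 13526 probes. Called means an adjusted p below 0.05. A call is said to have held where it also passed with a spread estimated for each group, passed in a fit of the 4 Foxp3+ arrays alone, and had KO and WT arrays that did not overlap.

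The HEB transcript was lower in KO Foxp3+ cells. Tcf12 read 7.28 and 7.48 on the WT arrays and 6.44 and 6.22 on the KO arrays. The groups did not overlap, and the difference was -1.06 ± 0.13 (log2, SE, n = 2 a group; limma adjusted p = 0.00363), a call that held. In Foxp3- cells the difference was -0.81 (limma adjusted p = 0.00387), and the interaction between genotype and fraction was not called for Tcf12 (limma adjusted p = 0.486). The labels do not say which exons were deleted, and a probe outside them would check nothing. Tcf3, the E2A gene, is not listed in the probe table used here and was not analysed.

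Id3 fell by 1.83 on the log2 scale in KO Foxp3+ cells (SE 0.19, n = 2 a group; limma adjusted p = 0.00187). Its arrays read 8.13 and 8.76 in WT and 6.58 and 6.66 in KO, and without background correction the difference was -1.21. In Foxp3- cells it was also lower in KO, by -1.16 (limma adjusted p = 0.00494). Of 6 tested genes of the list of E proteins and their HLH partners, 2 were called lower and 0 higher, Tcf12 and Id3, and both held; over all genes tested 4.25% were called, 1.65% higher and 2.59% lower. Id2, the other Id protein of thymocytes, read 8.29 and 8.18 in WT and 8.74 and 8.21 in KO, and was not called (limma adjusted p = 0.478). Tcf4, which encodes the third E protein E2-2, had a difference of 0.20, with overlapping groups (limma adjusted p = 0.741).

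The promoters of Id3 and Tcf12 are shown because both transcripts fell and both genes belong to the E protein network, and that of Gdpd3 because its transcript had the largest rise of the comparison. Each is 300 bases from 250 before to 50 after the first listed RefSeq start in GRCm38.p6, 5′ to 3′ on the gene's strand. Id3 lies at chr4:136143572-136143871 on the + strand, Tcf12 at chr9:72111770-72112069 on the - strand and Gdpd3 at chr7:126766164-126766463 on the + strand. Capitals mark the E-box CAGCTG, which is its own reverse complement, or CAGGTG and its reverse complement CACCTG, so that both strands were searched.
Id3 promoter: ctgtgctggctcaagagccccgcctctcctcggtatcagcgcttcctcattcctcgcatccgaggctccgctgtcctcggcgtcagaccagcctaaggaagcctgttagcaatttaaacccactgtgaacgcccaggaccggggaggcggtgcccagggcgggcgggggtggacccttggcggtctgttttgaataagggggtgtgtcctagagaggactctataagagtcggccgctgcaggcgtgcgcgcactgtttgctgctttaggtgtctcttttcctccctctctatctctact
Tcf12 promoter: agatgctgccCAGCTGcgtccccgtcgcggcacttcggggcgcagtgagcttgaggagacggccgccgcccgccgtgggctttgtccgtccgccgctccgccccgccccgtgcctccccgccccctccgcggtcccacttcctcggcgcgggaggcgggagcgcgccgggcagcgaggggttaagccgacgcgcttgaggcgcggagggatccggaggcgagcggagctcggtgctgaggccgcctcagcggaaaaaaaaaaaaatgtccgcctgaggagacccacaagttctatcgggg
Gdpd3 promoter: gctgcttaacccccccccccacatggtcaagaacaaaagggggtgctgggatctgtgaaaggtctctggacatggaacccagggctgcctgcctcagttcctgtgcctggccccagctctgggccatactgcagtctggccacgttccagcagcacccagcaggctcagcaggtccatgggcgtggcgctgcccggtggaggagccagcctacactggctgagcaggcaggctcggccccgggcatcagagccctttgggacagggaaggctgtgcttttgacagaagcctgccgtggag
The Tcf12 promoter held 1 of these E-boxes and the other promoters shown held 0. An E-box of these kinds was present in 29.2% of the 7506 tested genes with a promoter entry, in 34.8% of the 198 called lower and in 24.2% of the 128 called higher in KO Foxp3+ cells. These shares describe letters in one window of each gene.

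Foxp3 itself did not pass the test. It read 9.74 and 9.90 on the WT arrays and 9.05 and 9.73 on the KO arrays, a difference of -0.43 (limma adjusted p = 0.294). The KO array of replicate 1 was the lowest of the 4. Without KO Foxp3+ replicate 1 the Foxp3 difference was -0.09, and without replicate 2 it was -0.77 and called (limma adjusted p = 0.0275). The probe was detected on 0 of the 4 Foxp3- arrays. A second Foxp3 probe was detected on 1 of the 8 arrays and was not tested.

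Of 8 Treg cell markers, 0 were called either way in limma, against 4.25% of all genes tested, and 3 had an unadjusted p under 0.05. That count depended on the setting: 1 marker was called lower under median scaling, under cyclic loess and without WT Foxp3+ replicate 2. Without background correction, in the authors' processed table and without KO Foxp3+ replicate 2, 1 was called lower and 1 higher. Il2ra, the high-affinity IL-2 receptor chain, read 10.00 and 10.27 in WT and 10.20 and 10.04 in KO. Ctla4, an inhibitory receptor, read 11.75 and 11.62 in WT and 12.07 and 12.33 in KO, a difference of 0.52 that missed the threshold (limma adjusted p = 0.093). Tnfrsf4, the costimulatory receptor OX40, read 13.13 and 12.65 in WT and 12.24 and 12.14 in KO (limma adjusted p = 0.053). The summed intensity of the 8 markers lay between 22605 and 26676 on the WT and between 22160.5 and 22947 on the KO Foxp3+ arrays, against 4378 to 6324 on the Foxp3- arrays. CD4 T cell markers, which include the CD3 chains, had 0 of 8 called in limma and 1 with an unadjusted p under 0.05. The Foxp3+ arrays thus carried the transcripts that define CD4+ Treg cells in both genotypes.

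A wider list of Treg cell genes had 26 members tested, with 0 called higher and 2 lower, against 1.65% and 2.59% of all genes tested, and a median difference of -0.07 against 0.03. The counts were 0 higher and 4 lower under median scaling, 3 and 6 without background correction and 3 and 5 in the authors' processed table. Without KO Foxp3+ replicate 2 they were 2 higher and 4 lower. Ecm1, a secreted matrix protein, read 11.95 and 11.65 in WT and 10.65 and 10.76 in KO, and fell by 1.10 (limma adjusted p = 0.00353), a call that held. Klrg1, a receptor of differentiated T and NK cells, fell by 0.99 (limma adjusted p = 0.0165), from 9.03 and 9.55 in WT to 8.29 and 8.32 in KO. The Klrg1 call passed with a spread for each group but not in the 4 Foxp3+ arrays alone (limma adjusted p = 0.0906). The same list had 9 genes called higher and 6 lower in Foxp3- cells, against 11.7% and 9.04% of all genes tested there. Socs2, Itgae and Nrp1 were higher in KO Foxp3- cells by 2.74, 2.56 and 1.93. The KO differences of these 3 genes in Foxp3+ cells were -0.06, 0.88 and 0.08, and 0 of them passed there. The interaction was called for 10 of the 26, against 5.38% of all genes tested.

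**Figure D1:**
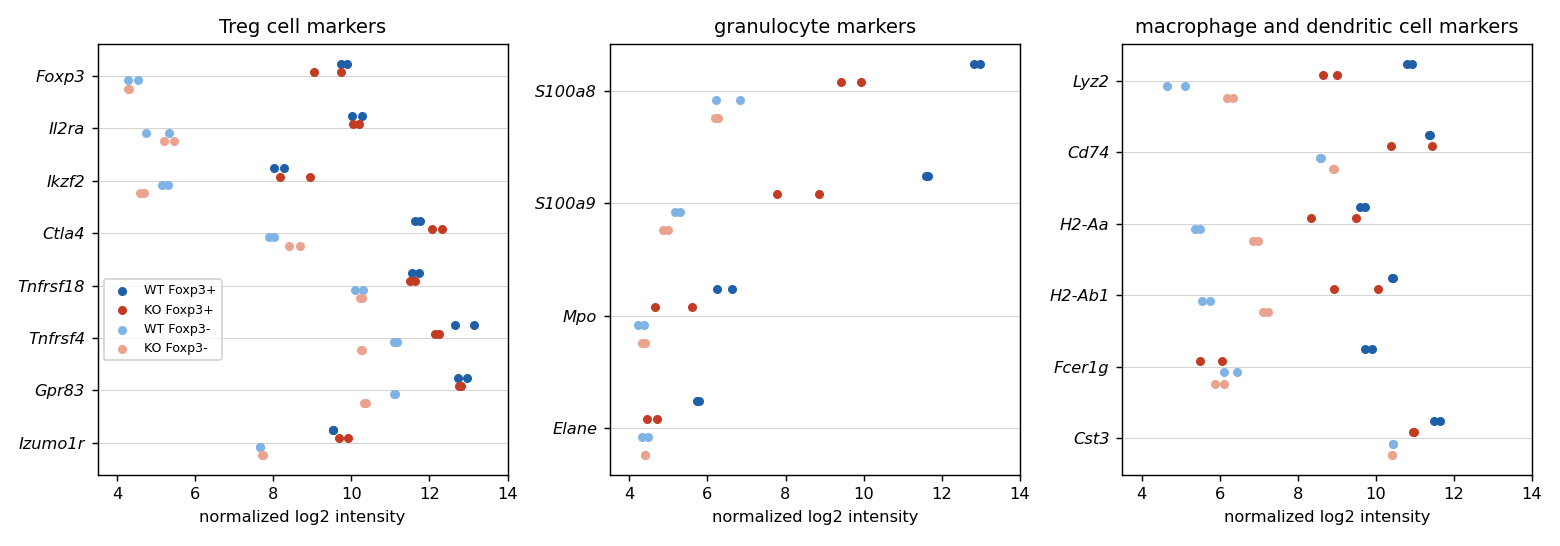
Markers of Treg cells (left), granulocytes (middle) and macrophages and dendritic cells (right), as normalized log2 intensity on each of the 8 arrays, with 2 points a group. Of 8 Treg cell markers, 0 were called between KO and WT Foxp3+ cells in limma and 3 had an unadjusted p under 0.05. S100a8, S100a9 and Fcer1g lie far lower on the KO than on the WT Foxp3+ arrays.

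Across the array, 523 of 13526 probes were called between KO and WT Foxp3+ cells (3.87%), 199 higher (1.47%) and 324 lower (2.4%) in KO. At 2-fold or more, 35 were higher (0.259%) and 135 lower (0.998%). Probes whose KO and WT arrays did not overlap numbered 6574 (48.6%). Of the 523 calls, 155 held (1.15%), 31 higher (0.229%) and 124 lower (0.917%). With each gene read from its brightest probe, 117 of 9137 genes held (1.28%), 23 higher (0.252%) and 94 lower (1.03%). The count of 523 moved with single arrays: it was 165 and 199 without WT Foxp3+ replicate 1 and 2, 322 without either WT Foxp3- array, 1039 without KO Foxp3+ replicate 2 and 158 (1.17%) with the 4 Foxp3+ arrays alone. The share of calls that were higher was 38.0%, and 23.2% under median scaling, 44.8% without background correction and 44.5% in the authors' processed table. Among calls at 2-fold or more it was 20.6%, against 15.3%, 10.3% and 10.3% in those settings. Without KO Foxp3+ replicate 2 both shares were higher.

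The 12 genes with the largest rises that held have different known functions. Gdpd3, a lysophospholipase D of lipid metabolism, had the largest: it read 6.13 and 6.09 on the WT Foxp3+ arrays and 13.31 and 13.21 on the KO arrays, 142-fold higher in KO (limma adjusted p = 4.46e-08). In Foxp3- cells its rise was 6.18 on the log2 scale, against 7.15 here. Cpne4, a calcium-dependent phospholipid-binding protein, was undetected on both WT Foxp3+ arrays, at 4.40 and 4.50, and read 7.46 and 7.67 in KO, at least 7.53-fold higher. Such a bound sets the bright group against the lowest signal of a detected probe on each dim array, or the probe's own signal where that is higher. Aim2, the cytosolic DNA sensor of an inflammasome, read 5.91 and 5.80 in WT and 8.41 and 8.45 in KO, 5.94-fold higher. Dmbt1, a secreted scavenger receptor, was undetected in WT and read 7.12 and 6.05 in KO, at least 3.83-fold higher. Without WT Foxp3+ replicate 1, Dmbt1 and Tnfaip3 were not called (limma adjusted p = 0.0548 and 0.0504).

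Tnfaip3, which encodes the NF-kB inhibitor A20, read 10.16 and 10.14 in WT and 11.44 and 12.18 in KO, 3.16-fold higher (limma adjusted p = 0.00463). Ctse, the protease cathepsin E, rose from 7.81 and 7.84 to 9.57 and 9.34. Hal, the first enzyme of histidine breakdown, rose from 4.73 and 4.66 to 6.28 and 6.19. Ntn4, a secreted netrin, read 4.76 and 4.81 in WT and 6.22 and 6.66 in KO, and had an interaction of 1.22 (limma adjusted p = 0.0178), with a difference of 0.44 in Foxp3- cells. Zfp30, a zinc finger gene, was at least 2.44-fold higher in KO. D3Ertd751e rose by 1.45 and Podnl1, a secreted leucine-rich repeat protein, by 1.24 on the log2 scale. A second Podnl1 probe had a difference of 0.66 and was not called. Without background correction the 12 rises were smaller, between 0.43 (Zfp30) and 5.92 (Gdpd3) on the log2 scale. The adjusted p of the 12 genes lay between 4.46e-08 and 0.00466 in limma.

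Hbb-b2, an adult beta-globin chain, was undetected on both WT Foxp3+ arrays, at 4.50 and 4.57, and read 6.66 and 7.68 in KO, at least 5.73-fold higher (limma adjusted p = 0.00307). Beta-globin genes are near-identical, so which gene the probe reads is uncertain. The summed intensity of erythroid markers was 4496 to 4733 on the WT and 6186 to 8739 on the KO Foxp3+ arrays, with 0 of 2 called in limma and both at an unadjusted p under 0.05. Hba-a1, an alpha-globin chain, read 12.11 and 12.18 in WT and 12.57 and 13.07 in KO (limma adjusted p = 0.103). In Foxp3- cells both erythroid markers were called higher in KO, with a median of 2.14 and sums of 187.8 to 239.3 in WT and 1946 to 2267 in KO, and Hbb-b2 was higher by 1.09 (limma adjusted p = 0.039). The part of erythroid RNA in the Hbb-b2 difference was not tested.

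**Figure D2:**
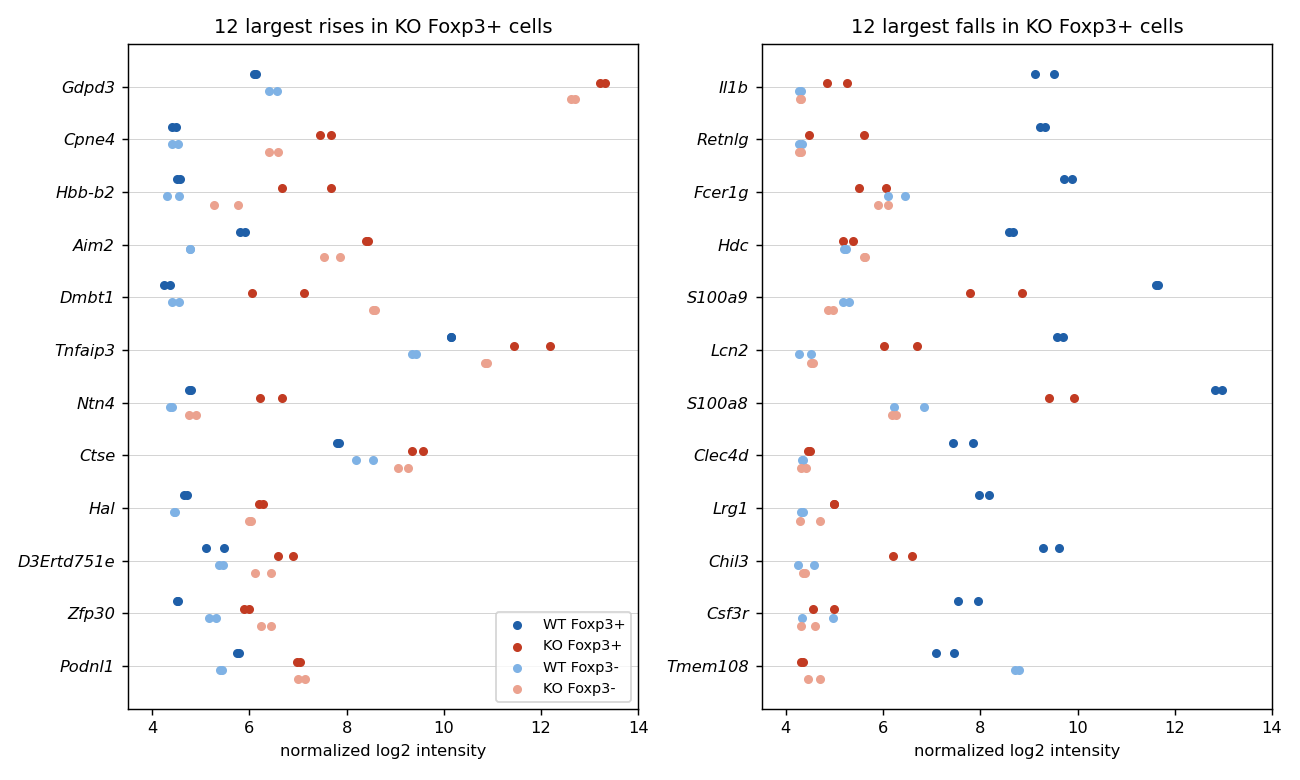
The 12 largest rises (left) and falls (right) among the genes whose call held, as normalized log2 intensity on each of the 8 arrays, with 2 points a group. The rises are mostly seen in both fractions, whereas 11 of the 12 falls are high on the WT Foxp3+ arrays and lower on all others.

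The 12 largest falls included S100a8 and S100a9, of the granulocyte marker list, and Fcer1g, of the macrophage and dendritic cell list. Il1b, the cytokine IL-1 beta, read 9.12 and 9.50 on the WT Foxp3+ arrays and 4.84 and 5.25 on the KO arrays, 19.3-fold lower in KO (limma adjusted p = 1.7e-05). It was detected on 0 of the 4 Foxp3- arrays. Retnlg, a resistin-like protein of neutrophils, read 9.23 and 9.33 in WT and 5.60 and 4.47 in KO, 19-fold lower, and was detected on 1 of the 2 KO arrays. Fcer1g, the signalling chain of Fc receptors, read 9.71 and 9.89 in WT and 5.51 and 6.05 in KO, 16.2-fold lower, and its KO level was close to that of Foxp3- cells, at 5.89 to 6.45.

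S100a8 and S100a9 encode the calcium-binding proteins that make up calprotectin, a main protein of neutrophil cytosol. S100a8 read 12.82 and 12.97 in WT and 9.92 and 9.41 in KO, 9.4-fold lower. S100a9 read 11.66 and 11.61 in WT and 8.86 and 7.78 in KO, 9.93-fold lower. Both KO arrays stayed above the Foxp3- arrays, where S100a8 read 6.19 to 6.84 and S100a9 4.86 to 5.29.

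Hdc, the enzyme that makes histamine, read 8.68 and 8.58 in WT and 5.37 and 5.16 in KO, 10.3-fold lower (limma adjusted p = 7.18e-06). Lcn2, the iron-scavenging lipocalin of neutrophil granules, was 9.68-fold lower and Chil3, a chitinase-like protein of myeloid cells, 8.28-fold lower in KO. Lrg1, a secreted leucine-rich glycoprotein, was 8.5-fold lower and Csf3r, the receptor for granulocyte colony-stimulating factor, 7.84-fold lower, with Csf3r detected on 1 of the 2 KO arrays. All 3 probes of Chil3 and all 3 of Csf3r were called lower. Clec4d, a myeloid C-type lectin receptor, was undetected on both KO arrays and at least 7.82-fold lower there. Without background correction the 12 falls were smaller, between -1.18 (Tmem108) and -3.09 (S100a8) on the log2 scale, and -2.52 for Il1b. The adjusted p of the 12 largest falls lay between 7.18e-06 and 0.000688 in limma.

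Tmem108, a membrane protein, was the exception among the 12. It read 7.46 and 7.09 on the WT Foxp3+ arrays and was undetected on both KO arrays, at 4.36 and 4.30, at least 6.04-fold lower. In Foxp3- cells it read 8.79 and 8.71 in WT and was also undetected on both KO arrays.

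Further genes known from neutrophils, chosen after their values were seen and so no support for a theme, were also called lower. Ngp, a neutrophil granule protein, fell from 8.20 and 8.08 in WT to 5.71 and 5.80 in KO. Camp, the antimicrobial cathelicidin, fell from 8.88 and 8.77 to 6.88 and 6.39. Cxcr2, the neutrophil chemokine receptor, read 6.34 and 6.26 in WT and was undetected in KO, at least 3.08-fold lower. Prtn3, a granule protease, was at least 1.62-fold lower in KO. Cd177, a neutrophil surface protein, was 2.82-fold lower, and Tyrobp, a signalling adaptor of myeloid and NK cells, 2.92-fold lower. Ltf, lactoferrin, was 3.63-fold lower (limma adjusted p = 0.0107), but this call did not hold in the 4 Foxp3+ arrays alone (limma adjusted p = 0.0587).

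All 4 granulocyte markers tested, S100a8, S100a9, Mpo and Elane, were called lower in KO Foxp3+ cells, against 2.59% of all genes tested. Their median difference was -2.27, and 3 of the 4 calls held. Mpo, a granule peroxidase, read 6.23 and 6.62 in WT and 5.59 and 4.66 in KO, and its call was lost in the 4 Foxp3+ arrays alone (limma adjusted p = 0.15). The summed intensity of the 4 markers was 10613 to 11308 on the WT Foxp3+ arrays, 946.7 to 1510 on the KO Foxp3+ arrays and 144.3 to 196.7 on the Foxp3- arrays. All 4 were called lower under each scaling tried, and 3 of 4 without either WT Foxp3+ array. Elane and Mpo were each detected on 1 of the 2 KO arrays. In bulk samples fewer cells of a type and less RNA per cell cannot be told apart, and the part of granulocyte RNA in the Foxp3+ sort in the genotype difference was not tested.

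Among 6 macrophage and dendritic cell markers, 3 were called lower and 0 higher, against 2.59% and 1.65% of all genes tested. The 3 were Fcer1g, Lyz2 and Cst3. Lyz2, macrophage lysozyme, read 10.79 and 10.94 in WT and 8.64 and 9.01 in KO, 4.1-fold lower. Cst3, the protease inhibitor cystatin C, read 11.48 and 11.64 in WT and 10.95 and 10.99 in KO, a fall of 0.59 that was not called in the 4 Foxp3+ arrays alone (limma adjusted p = 0.123). The antigen-presentation genes H2-Aa, H2-Ab1 and Cd74 were high on both WT arrays and on KO replicate 1 and lower on KO replicate 2, and 0 of 3 were called in limma, where 5 of all 6 markers had an unadjusted p under 0.05. H2-Ab1 read 10.40 and 10.45 in WT and 10.06 and 8.92 in KO. The summed intensity of the 6 was 10243 to 11042 in WT and 4762 to 7003 in KO Foxp3+ cells, against 1943 to 2273 in Foxp3- cells.

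The rises that held were largely called in Foxp3- cells too, whereas many of the falls were of genes undetected there. Of the 23 genes with a higher call that held, 22 were also called higher in KO Foxp3- cells, where 11.7% of genes were, and Ntn4 was not. Of the 94 genes with a lower call that held, 29 were also called lower in Foxp3- cells, where 9.04% were, 9 were called higher there and 56 were not called. Of these 94, 43 were undetected on all 4 Foxp3- arrays, where no fall could be seen. The interaction was called for 67 of the 94, against 5.38% of all genes tested. The 94 were chosen by their Foxp3+ difference, which is part of the interaction, so a higher share follows in part from the choice. The same choice helps set their Foxp3+ median apart from their Foxp3- median. Genes undetected in Foxp3- cells also enter the count of 67 and the Foxp3- median, so neither shows whether these falls are shared. The median of the 94 was -1.52 in Foxp3+ and -0.03 in Foxp3- cells, and that of the 23 was 1.24 and 1.46. The 2 comparisons share no array, but they come from the same fit, which gives each probe the same spread in both.

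**Figure D3:**
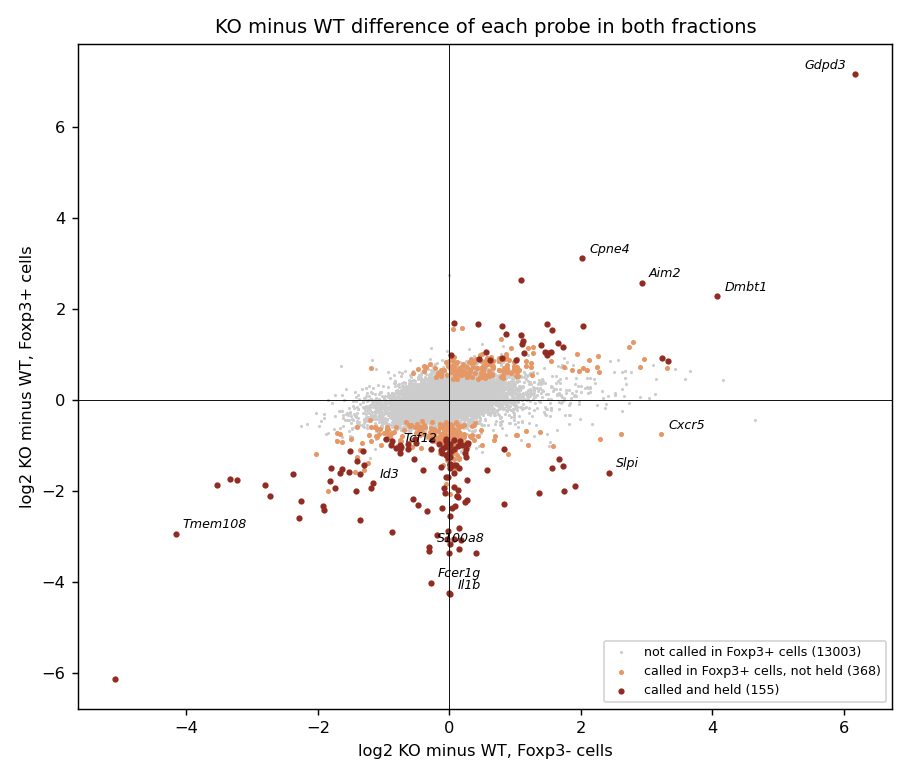
Log2 KO minus WT difference of each of the 13526 probes in Foxp3- cells (horizontal axis) and Foxp3+ cells (vertical axis), with 155 probes whose call held in dark red and 368 other calls in orange. Gdpd3, Cpne4, Aim2 and Dmbt1 lie at the upper right, and a column of falls including Il1b, Fcer1g and S100a8 lies near 0 on the horizontal axis.

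Some genes were called in opposite directions in the 2 fractions. Of 237 genes called lower in KO Foxp3+ cells, 20 were called higher in KO Foxp3- cells, where 11.7% of all genes were. Of 151 called higher, 2 were called lower in Foxp3- cells, where 9.04% of all genes were. Neither count exceeds the share over all genes. Cxcr5, the receptor that draws lymphocytes to follicles, read 9.37 and 9.66 in WT and 8.90 and 8.61 in KO Foxp3+ cells, against 4.59 and 4.84 in WT and 7.96 and 7.91 in KO Foxp3- cells. The fractions were thus far apart in WT and close in KO. Its interaction was -3.98 (limma adjusted p = 0.000134), and all 3 Cxcr5 probes were called lower in Foxp3+ and higher in Foxp3- cells. The fall of 0.76 in Foxp3+ cells was not called with a spread for each group (limma adjusted p = 0.0763). Slpi, a secreted inhibitor of neutrophil proteases, read 9.89 and 9.98 in WT and 8.31 and 8.36 in KO Foxp3+ cells, against 4.70 and 4.76 in WT and 7.14 and 7.17 in KO Foxp3- cells.

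Socs3, the inhibitor of cytokine signalling through STAT3, fell 2-fold in Foxp3+ cells, from 11.48 and 11.71 to 10.46 and 10.73, and rose by 1.58 in Foxp3- cells. The Socs3 fall was not called in the 4 Foxp3+ arrays alone (limma adjusted p = 0.0557). Ifitm2 and Ifitm3, interferon-induced membrane proteins, were 3.7-fold and 2.82-fold lower in KO Foxp3+ cells and rose by 1.91 and 1.56 on the log2 scale in Foxp3- cells. Pygl, liver glycogen phosphorylase, fell by 1.99 and rose by 1.75. Lyz2 and its near-identical copy Lyz1 fell by 2.04 and 1.46 and rose by 1.37 and 1.73, and a probe of one may also bind the other's transcript. The probes of Lyz1 disagreed: its other probes had differences of -0.17 and -0.07 in Foxp3+ cells and were not called. Of these genes, Slpi, Ifitm2, Ifitm3, Pygl and Lyz1 were singled out after their values were seen. The 2 genes of the other direction were Ccne1 and Tmem218, with differences of 0.59 and 0.68 in Foxp3+ cells. Neither call held there (limma adjusted p = 0.0793 and 0.0597 with a spread for each group). A second Tmem218 probe had a difference of 0.08 in Foxp3+ cells and was not called.

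Of 16 E protein target genes tested, 1 was called higher and 2 lower, against 1.65% and 2.59% of all genes tested, and 0 of the 3 calls held. The list had a median of 0.02 against 0.03 over all genes. The 2 lower ones were Socs3 and Cxcr5, given above. Il7r, the IL-7 receptor chain that carries survival signals, read 11.73 and 11.90 in WT and 12.53 and 12.41 in KO, a rise of 0.65 (limma adjusted p = 0.0221) that missed the threshold with a spread for each group (limma adjusted p = 0.0512). Of the 3 Il7r probes, 2 were called, and the third had a difference of 0.47. Targets of double-positive thymocytes were dim: Rag1, of the recombinase, read 4.89 and 4.39 in WT and 6.54 and 4.49 in KO. Ptcra, the pre-T cell receptor chain, had a difference of 0.17 (limma adjusted p = 0.551).

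The calls of the gene lists from here on are read against 4.25% of all genes called in Foxp3+ and 20.8% in Foxp3- cells. In the T cell receptor response list 1 of 14 was called, Egr2, an immediate early factor, which read 9.74 and 9.76 in WT and 9.13 and 8.97 in KO (limma adjusted p = 0.0154), against 1 higher and 6 lower calls in Foxp3- cells. Among receptor signalling components 1 of 12 was called, the adaptor Lat, higher by 0.54. The NF-kB list had 1 call among 11, Tnfaip3. Cytokine receptors and STAT signalling had 2 among 16, Il7r and Socs3, against 11 in Foxp3- cells. Thymocyte maturation and egress had 1 among 9, Il7r, against 5 in Foxp3- cells. The TGF-beta, Notch and Wnt, apoptosis, and ribosomal protein lists had 0 calls among 8, 8, 9 and 11 members in limma, with 0, 2, 2 and 2 at an unadjusted p under 0.05. Glycolysis had 1 among 12, pyruvate kinase Pkm, which read 11.31 and 11.41 in WT and 10.67 and 10.14 in KO. Of the calls in these lists, that of Tnfaip3 held.

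Of 14 effector helper and follicular genes, 1 was higher and 1 lower in KO Foxp3+ cells, Ifng and Cxcr5, against 10 higher in Foxp3- cells. Ifng, interferon gamma, read 6.04 and 5.80 in WT and 6.91 and 6.73 in KO Foxp3+ cells, a rise of 0.90 (limma adjusted p = 0.00861), against 2.95 in Foxp3- cells, an interaction of -2.05 (limma adjusted p = 0.000878). The Ifng call was lost in the 4 Foxp3+ arrays alone (limma adjusted p = 0.0641). Of 10 innate-like lymphocyte genes, Il18r1 was higher and Fcer1g lower here, against 6 higher in Foxp3- cells. Il18r1, an IL-18 receptor chain, read 9.54 and 9.60 in WT and 10.83 and 10.26 in KO, and its call did not hold in the 4 Foxp3+ arrays alone (limma adjusted p = 0.109). Of 12 chemokine receptor and adhesion genes, Cxcr4 was higher and Cxcr5 lower. Cxcr4, the receptor that keeps progenitors in the cortex, read 10.08 and 10.23 in WT and 11.23 and 11.06 in KO, 1.98-fold higher (limma adjusted p = 0.00278), a call that held. Of 9 interferon response genes, 2 were lower, Oasl1 and Isg15, with differences of -0.79 and -0.44, and neither call held.

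Cell cycle genes had 1 call among 15, the G1 cyclin Ccne1, higher in KO, against 0 higher and 10 lower in Foxp3- cells. The Ccne1 call did not hold (limma adjusted p = 0.142 in the 4 Foxp3+ arrays alone) and passed in 5 of 22 other settings. The list had 0 higher calls under each other scaling, with 0 lower calls under median scaling, 1 under cyclic loess and 3 without background correction. Their median was -0.27 in Foxp3+ and -0.67 in Foxp3- cells. KO replicate 2 was low for several: Top2a, a topoisomerase of dividing cells, read 7.03 and 6.76 in WT and 6.90 and 5.73 in KO. Birc5, which acts in mitosis, read 7.39 and 7.27 in WT and 7.05 and 5.97 in KO.

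Among histone genes, picked by symbol after their values were seen, 13 of 43 were called lower and 0 higher in KO Foxp3+ cells, against 2.59% and 1.65% of all genes tested. Their median was -0.48, and 41 had a difference below 0. Without KO Foxp3+ replicate 2 the median was -0.30, with 34 below 0. H2bc11 read 8.34 and 8.16 in WT and 7.57 and 7.22 in KO, and H4c8 read 7.21 and 7.18 in WT and 6.40 and 6.41 in KO (limma adjusted p = 0.0146 and 0.00664). Of the 13, 8 were still called with a spread for each group and 0 held. In Foxp3- cells 10 of the 43 were lower and 2 higher, against 9.04% and 11.7% of all genes tested. Without WT Foxp3+ replicate 1 or 2 the count fell to 0 and 1, without KO Foxp3+ replicate 1 it was 19, and the median stayed below 0 in each case. Histone genes are near-identical copies, so which gene a probe reads is uncertain.

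The KO Foxp3+ replicates lay further apart than those of any other group. Over probes, their SD had a median of 0.13, against 0.09 in WT Foxp3+ cells and 0.08 and 0.09 in WT and KO Foxp3- cells. In KO Foxp3+ cells 157 probes differed more than 2-fold between the 2 arrays, against 13 in WT Foxp3+ cells, and replicate 1 was the higher on 130 of the 157. The spread was wider in each of 4 equal bins of signal, from 0.15 against 0.13 in the dimmest to 0.09 against 0.06 in the brightest. Of the 157 probes, 6 were called between KO and WT, a share near the 3.87% of all probes tested.

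Genes known from other cell types were among those high on KO replicate 1 alone of the 4 Foxp3+ arrays, as seen after their values. Cd163l1, a scavenger receptor of gamma-delta T cells, read 9.57 and 4.60 on the KO arrays and 4.45 and 4.23 on the WT arrays. Arpp21, a gene of double-positive thymocytes, read 8.18 and 4.31 in KO and 5.94 and 4.42 in WT. Both genes were detected on all 4 Foxp3- arrays, Cd163l1 at 6.89 to 7.04 and Arpp21 at 5.42 to 5.75. Cd79a, a chain of the B cell receptor, read 8.14 and 6.40 in KO and 6.60 on both WT arrays. The kinase Blk, also of B cells, read 7.44 and 5.90 in KO and 5.40 and 5.69 in WT. Tff1, a mucosal trefoil peptide, was uneven in both genotypes, at 7.75 and 5.40 in WT and 7.85 and 4.28 in KO. The summed intensity of the B cell markers was 577.8 to 1204 on the KO arrays against 660.3 to 707.4 in WT, and that of double-positive markers 843.2 to 1733 against 1003 to 1224. The gamma-delta T cell list had 2 members with a probe, Blk and Sox13, and Sox13 was undetected on all 4 Foxp3+ arrays. Their sum, 79.1 to 194.3 in KO against 63.6 to 73.5 in WT, thus repeats the Blk probe. The genes named here as high on KO replicate 1 were not called, and the part of such cells in the spread was not tested.

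**Figure D4:**
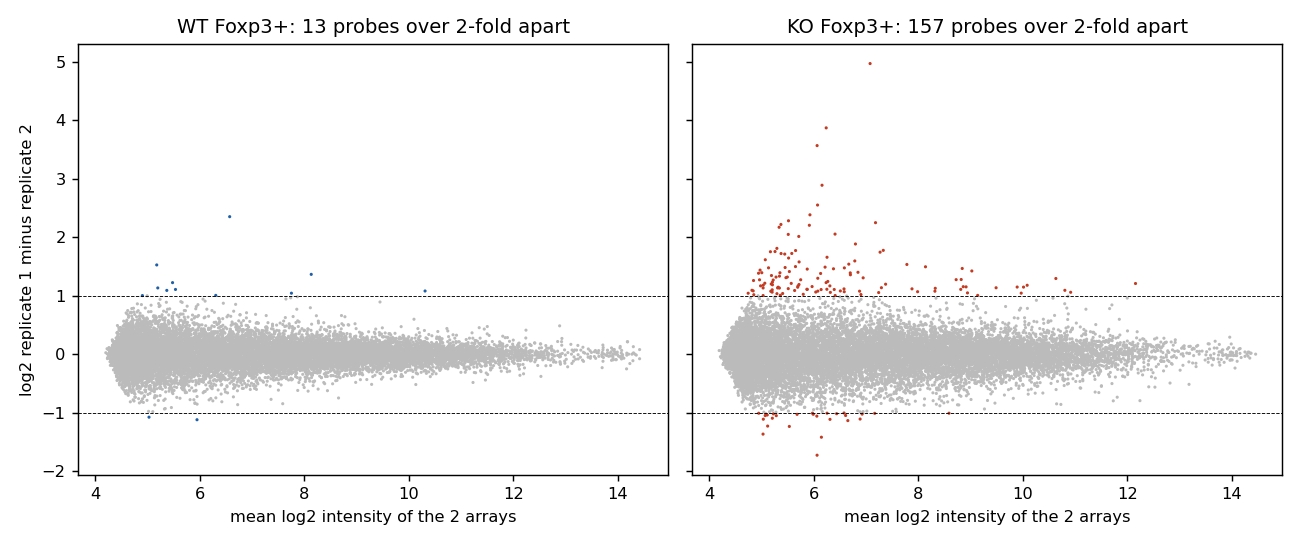
Log2 difference of replicate 1 minus replicate 2 against the mean of the 2 arrays for each probe, in WT Foxp3+ (left) and KO Foxp3+ cells (right), with dashed lines at 2-fold. More probes lie beyond the lines in KO, 157 against 13, mostly on the side of replicate 1.

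By detection alone, 134 probes were detected on both KO and neither WT Foxp3+ array, and 263 on both WT and neither KO array. Of these, 21 and 59 were called, against 3.87% of all probes tested. The probes were picked by their signal on the same Foxp3+ arrays, so a higher share called follows from the choice. Of the 263, 122 were undetected on all Foxp3- arrays too, and were kept for testing through the WT Foxp3+ arrays alone. At a detection p under 0.01 the counts were 83 and 256.

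The share of genes called differed between chromosomes, which was not tested. On chromosome 9, which holds Tcf12, 44 of 533 tested genes were called (8.26%), and on chromosome 7, which holds Gdpd3, 52 of 741 (7.02%), against 3.72% on all other chromosomes together. Chromosome 13, which holds most of the histone genes, had 25 of 324 (7.72%). On chromosome 9, 28 of the 44 were called in the same direction in Foxp3- cells, which is 5.25% of the genes tested there, against 1.32% on all chromosomes but 7 and 9. Among the 20 tested genes nearest to Tcf12 in order along the chromosome, 5 were called, all in both fractions: Rora, Mindy2, Aqp9, Mns1 and Tex9. Mns1, of the sperm flagellum, read 8.33 and 8.14 in WT and 6.60 and 5.64 in KO Foxp3+ cells. A further window of 20 tested genes held 9 called genes, all 9 called the same way in both fractions, among them Tmem108, Cpne4, Atp2c1, Abhd14b and Parp3.

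Rpl29, a ribosomal protein gene of that window, had probes that disagreed in size. The brighter probe read 12.57 and 12.60 in WT and 11.08 and 11.21 in KO Foxp3+ cells, a fall of 1.44, and the other read 11.22 and 11.11 in WT and 5.06 and 5.03 in KO, a fall of 6.12. Atp2c1, a Golgi calcium pump, had a probe that fell by 2.23 and another at -0.31 that was not called. The windows and these genes were chosen after their values were seen, gene order is that of RefSeq GRCm38.p6, and whether a probe sequence differs between the mice was not tested. Genotype and any difference in background linked to the floxed alleles cannot be told apart with these arrays.

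**Figure D5:**
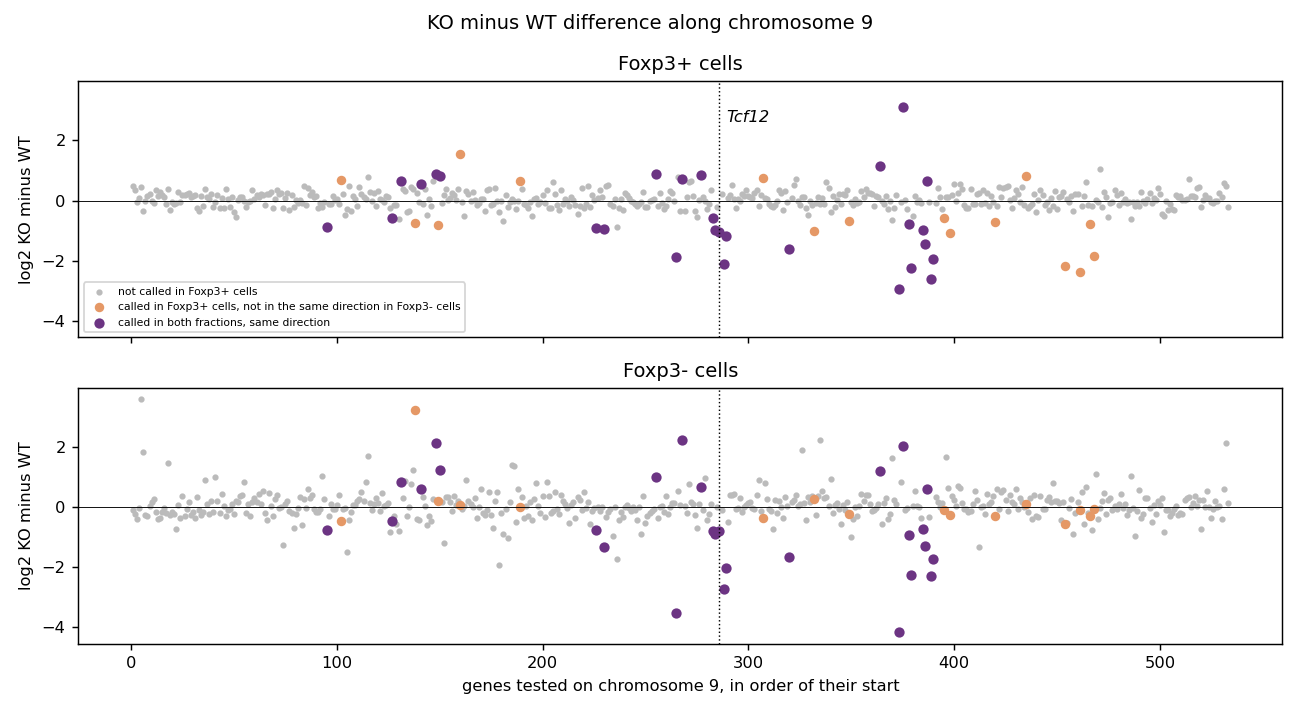
Log2 KO minus WT difference of the 533 tested genes of chromosome 9 in order of their start, in Foxp3+ (upper) and Foxp3- cells (lower), with Tcf12 at the dotted line. The 28 genes called the same way in both fractions (purple) include 9 in a window of 20 genes to the right of Tcf12.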

How the data were processed

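Expression was measured in 8 samples, 2 in each of 4 groups. Per the file headers, the deposited table of the authors holds for each probe an average signal intensity, not normalized, and a detection p-value. The submitters' processing notes name GenomeStudio 2011.1. The authors' processed table holds log2 values. These equalled quantile-normalized log2 intensities to within 0.000675, and its 14942 probes are those that 2 or more arrays detected at a p below 0.1, and its columns have a median of 7.58. Column names in the file headers share 1 chip number, so the 8 arrays are taken to lie on 1 slide.

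Intensities were background-corrected with negative control values inferred from the detection p-values (offset 16), quantile-normalized over the 8 arrays and taken to log2 in limma 3.58.1 under R 4.3.3. Of 25697 probes, 13526 were detected (p below 0.05) by 2 or more arrays and kept. Group means were fitted to all 8 arrays with lmFit and eBayes, with Benjamini-Hochberg adjustment, and tests were two-sided. The smallest p of an exact permutation test of 2 against 2 arrays is 0.333, so none was used. The platform table gives 1 gene symbol for 14017 probes and 10033 genes. A gene is read from its brightest probe by mean over the 8 arrays, which left 9137 genes. Named genes are Tcf3, Tcf12, Foxp3, the 12 largest rises and falls among calls that held, and up to 4 called members of each list. Members and lists were chosen with earlier results of these data known. The fits were tested on simulated data. Replicate numbers were not used as a pairing, since deviations of same-numbered arrays correlated between -0.03 and 0.10.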

Additional observations from a re-analysis of the deposited data

Results flagged for a closer look

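The KO effect differed between the fractions for 26 of the named genes, by the interaction in limma (KO minus WT in Foxp3+ cells minus the same in Foxp3- cells, log2). It was -4.28 for Il1b, -4.24 for Retnlg, -3.74 for Fcer1g, -3.76 for Hdc, -3.42 for Lcn2 and -3.26 for Lrg1. It was -3.00 for S100a9, -2.93 for S100a8, -3.18 for Clec4d, -3.01 for Chil3, -2.78 for Csf3r, -3.40 for Lyz2 and -1.16 for Elane. Among T cell genes it was -3.98 for Cxcr5, -2.58 for Socs3, -2.05 for Ifng, -1.30 for Il18r1, -1.48 for Klrg1 and -0.97 for Ecm1. Isg15 and Ccne1 had 0.77 and 1.14. Genes that changed the same way in both fractions had 0.98 (Gdpd3), 1.10 (Cpne4), -1.80 (Dmbt1) and 1.22 (Tmem108), and Ntn4, called in Foxp3+ cells, had 1.22. Cpne4 and Dmbt1 were undetected on all WT arrays and Tmem108 on all KO arrays, so values near background enter their interactions. Il1b, Retnlg, Lcn2, Clec4d, Lrg1, Chil3 and Elane were undetected on all 4 Foxp3- arrays, where no fall could be seen. Adjusted p of these interactions lay between 6.18e-05 and 0.0458 in limma. The genes were named for a call in Foxp3+ cells, a difference that is part of the interaction.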

How the results depend on the processing

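For 45 named genes and 22 other settings, 885 of 990 values kept their direction and side of the threshold, 104 lost the call, 1 gained it (Foxp3, without KO Foxp3+ replicate 2) and 0 turned. The count of called probes was 523. It was 971 without background correction, 981 from the authors' processed table, 860 with an offset of 50, 962 with a variance trend, 330 with array weights, 321 with group weights and 158 with only the Foxp3+ arrays. Leaving out 1 array at a time gave 165 to 1039. Probes called at 2-fold or more numbered 58 without background correction and from the authors' table and 88 with an offset of 50, against 170, and 132 to 278 with 1 array left out. The 155 calls that held became 298 under median scaling, 246 with an offset of 50, 78 with no filter, 302 with a variance trend and 264 with the replicate block, and 47 to 158 with 1 array left out. The 715 interaction calls became 1093 with a variance trend and 281 to 1098 with 1 array left out. A fit without 1 array assumes that the lone sample varies like the other groups. With the replicate block, probes called numbered 420 and interaction calls 607, and the numbers share no stated pairing. The median SD between KO Foxp3+ replicates, 0.13, was 0.068 without background correction, 0.064 in the authors' table and 0.081 with no filter, and that of WT Foxp3+ replicates, 0.09, was 0.048 and 0.047 in the first of these. Probes over 2-fold apart were 23, 23 and 49 in KO and 3, 3 and 3 in WT without background correction, in the authors' table and with an offset of 50. KO stayed the wider in each. At a detection p under 0.01, probes on both KO and neither WT array numbered 83, against 134. The stricter detection threshold, the alternatives for calls that held and those for gene lists were chosen after seeing the data. The cause of these shifts was not tested. Dim probes limit the folds of genes near background.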
